A study of Homo sapiens with 4 samples.

Results

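The epidermal differentiation complex is a run of genes on human chromosome 1, in band 1q21, and its 53 listed members were read here for the histone variant macroH2A1. The list was given by name: 37 genes of the cornified envelope and 16 S100 genes, of 20098 protein-coding genes annotated on the autosomes and the X chromosome. The envelope genes are 7 fused S100-type genes (FLG, FLG2, HRNR, RPTN, TCHH, TCHHL1, CRNN), 18 late cornified envelope (LCE) genes with CRCT1, and 10 small proline-rich (SPRR) genes with IVL. In both replicates 51 members were measured, of 19517 measured coding genes. A gene was measured where bases assayed in both replicates at once made up at least 50% of its annotated span. LCE3B and LCE3C were the other members: no assayed block covered them in either replicate, so they have no value here, and the cause was not tested.

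The material was chromatin of IMR90, an established line of fibroblasts from human fetal lung, grown in medium with serum and given no further treatment. One group was profiled: 2 biological replicates of chromatin immunoprecipitation with an antibody against macroH2A1, and 2 inputs, chromatin taken before the antibody step. Each ChIP replicate came as a segmentation of the genome in which every segment carries the authors' log2 ratio of ChIP over input, so the inputs entered only as the denominator. One cell line, one antibody and no second condition limit the data to a description of where the variant lay in these cells.

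MacroH2A1 is a histone H2A variant with a large globular macro domain, and in fibroblasts it is known for broad domains over silent chromatin as well as for a presence at some active genes. The cornified envelope is the protein shell that keratinocytes assemble beneath their membrane as they become the dead outer layer of the skin: involucrin is laid down early, small proline-rich and late cornified envelope proteins are crosslinked to it by transglutaminases, and filaggrin bundles the keratin filaments. S100 proteins are small calcium-binding proteins, some made by many cell types and others by myeloid cells or inflamed skin. The envelope genes are known as keratinocyte genes and are not known for expression in lung fibroblasts, whereas S100A4, S100A6, S100A10, S100A11, S100A13 and S100A16 are known from mesenchymal cells.

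The promoters of 9 members are shown because their ChIP ratios span the range found in the complex and because their base composition differs. Each runs 5′ to 3′ on the strand of its gene, from 250 bases before the start site to 50 bases after it, taken from RefSeq (GRCh38.p14) and found letter for letter once in GRCh37, the build of the coordinates. Capitals mark every CG dinucleotide, the motif TATAAA where it lies 20 to 40 bases before the start on the strand of the gene, and the AP-1 motif TGANTCA. The first 4 belong to S100 genes with low ratios at their start in at least 1 replicate, the next 2 to S100 genes enriched in both replicates, and the last 3 to an envelope gene of each class.
S100A10: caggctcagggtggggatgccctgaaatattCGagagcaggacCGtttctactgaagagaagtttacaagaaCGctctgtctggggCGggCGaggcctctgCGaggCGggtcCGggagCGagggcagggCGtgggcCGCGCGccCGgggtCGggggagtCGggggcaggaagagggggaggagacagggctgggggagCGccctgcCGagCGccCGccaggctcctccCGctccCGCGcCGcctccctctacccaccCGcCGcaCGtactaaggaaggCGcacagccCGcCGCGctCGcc
S100A6: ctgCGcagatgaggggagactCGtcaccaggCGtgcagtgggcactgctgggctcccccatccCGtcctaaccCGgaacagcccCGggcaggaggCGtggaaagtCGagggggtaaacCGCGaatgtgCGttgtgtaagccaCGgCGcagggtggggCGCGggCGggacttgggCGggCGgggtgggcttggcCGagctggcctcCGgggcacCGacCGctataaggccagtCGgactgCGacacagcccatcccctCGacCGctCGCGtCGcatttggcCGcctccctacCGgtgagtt
S100A11: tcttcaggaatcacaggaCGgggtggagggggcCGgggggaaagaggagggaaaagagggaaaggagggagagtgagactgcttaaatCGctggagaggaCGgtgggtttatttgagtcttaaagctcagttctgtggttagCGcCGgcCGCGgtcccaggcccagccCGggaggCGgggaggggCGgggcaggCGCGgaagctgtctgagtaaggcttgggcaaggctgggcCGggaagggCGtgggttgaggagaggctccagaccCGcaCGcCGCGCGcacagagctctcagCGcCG
S100A16: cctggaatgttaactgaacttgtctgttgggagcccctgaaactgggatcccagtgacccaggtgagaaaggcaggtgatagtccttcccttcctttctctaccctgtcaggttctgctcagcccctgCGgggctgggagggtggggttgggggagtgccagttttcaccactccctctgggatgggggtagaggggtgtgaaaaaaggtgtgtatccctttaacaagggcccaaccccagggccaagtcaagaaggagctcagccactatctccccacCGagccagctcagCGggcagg
S100A7: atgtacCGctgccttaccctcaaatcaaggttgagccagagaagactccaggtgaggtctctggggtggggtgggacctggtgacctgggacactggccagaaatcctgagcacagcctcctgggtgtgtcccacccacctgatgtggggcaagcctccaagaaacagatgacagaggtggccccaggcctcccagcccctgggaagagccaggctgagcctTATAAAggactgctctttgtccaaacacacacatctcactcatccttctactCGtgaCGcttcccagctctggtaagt
S100A12: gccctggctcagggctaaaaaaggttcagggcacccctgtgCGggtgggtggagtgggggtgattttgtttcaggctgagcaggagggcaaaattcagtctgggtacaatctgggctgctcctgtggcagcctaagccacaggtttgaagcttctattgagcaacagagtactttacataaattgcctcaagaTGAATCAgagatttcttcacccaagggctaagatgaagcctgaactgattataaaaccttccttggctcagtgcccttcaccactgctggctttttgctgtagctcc
FLG: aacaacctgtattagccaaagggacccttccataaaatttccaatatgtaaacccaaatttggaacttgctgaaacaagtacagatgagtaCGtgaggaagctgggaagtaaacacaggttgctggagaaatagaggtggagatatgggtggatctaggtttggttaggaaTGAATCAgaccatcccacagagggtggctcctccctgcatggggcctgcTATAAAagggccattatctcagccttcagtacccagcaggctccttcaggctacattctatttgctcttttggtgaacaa
LCE2A: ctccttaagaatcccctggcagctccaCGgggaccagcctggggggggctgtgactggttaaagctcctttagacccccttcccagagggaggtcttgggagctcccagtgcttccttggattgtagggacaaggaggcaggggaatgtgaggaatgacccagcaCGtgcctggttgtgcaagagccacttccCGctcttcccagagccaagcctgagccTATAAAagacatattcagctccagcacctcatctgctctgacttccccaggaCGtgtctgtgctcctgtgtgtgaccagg
SPRR2A: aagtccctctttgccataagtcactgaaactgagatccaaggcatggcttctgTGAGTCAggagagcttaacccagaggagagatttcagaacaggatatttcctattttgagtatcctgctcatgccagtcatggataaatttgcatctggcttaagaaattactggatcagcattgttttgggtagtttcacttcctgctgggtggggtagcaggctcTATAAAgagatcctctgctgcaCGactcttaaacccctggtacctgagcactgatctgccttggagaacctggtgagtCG
S100A10 lay at chr1:151966286-151966585 (minus strand), S100A6 at chr1:153508418-153508717 (minus), S100A11 at chr1:152009431-152009730 (minus) and S100A16 at chr1:153585564-153585863 (minus). S100A7 lay at chr1:153433078-153433377 (minus) and S100A12 at chr1:153348048-153348347 (minus). FLG lay at chr1:152297666-152297965 (minus), LCE2A at chr1:152670571-152670870 (plus) and SPRR2A at chr1:153029939-153030238 (minus).

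A value below is the base-weighted mean log2 ratio of ChIP over input over the assayed part of a gene span, where 0 means equal to the input on the scale of that library. A segment with a positive log2 ratio and a −log10 p of 2 or more counted as enriched, and a gene was called where at least 50% of its assayed bases lay in enriched segments of both replicates. No p-value is given for any difference: with 2 replicates, the smallest two-sided p of an exact sign flip is 0.5, so differences are set against the spread between the replicates. Spans are those of GENCODE release 44 on GRCh37. Neighbouring members often lie in the same segment and then share its value: the 35 measured envelope members held 7 distinct values in each replicate, and the 16 S100 members held 10. Members are therefore not independent of each other.

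Across the whole file, replicate 1 held 46979 segments and replicate 2 held 25599, over 2788 Mb and 2756 Mb of assayed bases, and enriched segments took 35.5% and 33.3% of those bases. The depth is unknown, because the files give no read counts. Ratios do not measure RNA, so the identity of the cells could not be checked from markers. Among 9 fibroblast genes 1 was called, beside 19.2% of all measured coding genes. The median log2 ratio of the 9 was -1.56 and -2.12.

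From the start of S100A10 to the end of S100A1 the complex spans chr1:151955391-153604515. Over this 1649 kb the mean log2 ratio was -0.42 in replicate 1 and -0.26 in replicate 2 (mean -0.34 ± 0.12, SD, n = 2), against -0.32 and -0.34 over the autosomes. Enriched segments of both replicates nevertheless covered 9.11% of the assayed bases of the complex, against 27.6% of the autosomes and 30.4% of chromosome 1. The mean was thus near that of the autosomes, while little of the complex was enriched. In single replicates the covered share was 12.2% and 19.6%. The 500 kb before the complex were covered to 46.7% and the 500 kb after it to 39.6%, so both flanks held more enriched sequence than the complex.

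**Figure D1:**
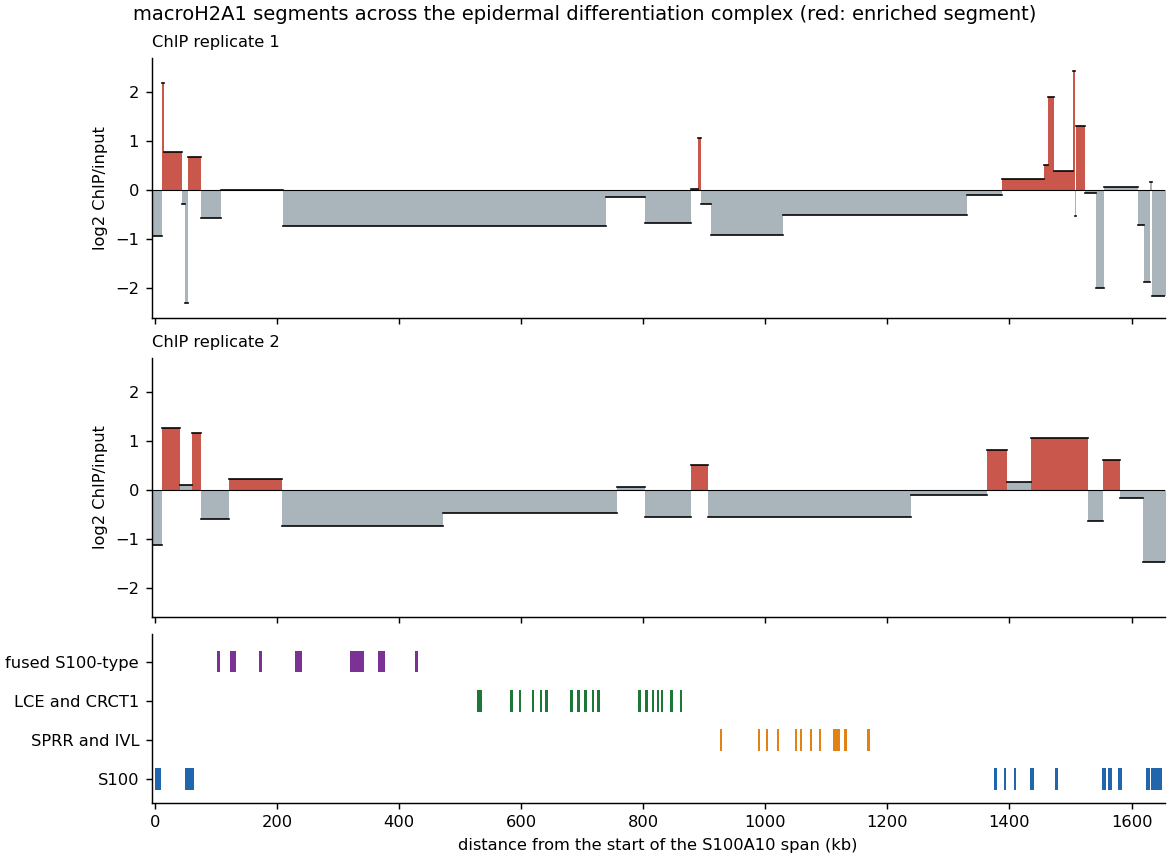
Log2 ratio of ChIP over input along the complex in each replicate, plotted against the distance in kb from its first base, with enriched segments in red and the members below by class. The long level stretches of the middle hold the envelope genes, while the S100 genes lie at both ends, beside the highest and the lowest segments.

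Of the 51 measured members, 3 were called as enriched in both replicates (5.88%), beside 19.2% of all measured coding genes. All of them were S100 genes: S100A12, which encodes a calgranulin of neutrophils, and S100A7 and S100A7A, which encode psoriasin and its close paralog koebnerisin of inflamed skin. With a log2 ratio above 0.5 required of an enriched segment, 0 members were called. No share of all coding genes is given for that rule, so this count cannot be set against the 19.2%. In replicate 1 alone 5 members passed, beside 22.4% of coding genes, and in replicate 2 alone 9 passed, beside 25.0%. The envelope genes gave 0 of 35 in both replicates and in replicate 1, and 2 of 35 in replicate 2. The S100 genes gave 3 of 16 in both replicates, a share near that of all coding genes.

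Counted by sign, 32 of 35 envelope members lay below 0 in both replicates, beside 69.7% of coding genes. All 32 lay between -1 and 0 in both replicates (91.4% of the envelope members), beside 20.9% of coding genes, and none lay below -1, beside 42.3%. Of the 16 S100 members, 6 were below 0 in both replicates and 8 above it, beside 22.8% of coding genes above it. No S100 member lay between -1 and 0 in both replicates, and 3 lay below -1 in both.

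The envelope members had a median log2 ratio of -0.73 in replicate 1 and -0.55 in replicate 2, and the S100 members of 0.01 and 0.26. The difference of medians, envelope minus S100, was -0.74 and -0.81 (mean -0.78 ± 0.05, SD, n = 2), more than the spread between replicates. Against all measured coding genes, whose medians were -0.88 and -0.75, the envelope members were 0.15 and 0.20 higher (mean 0.17 ± 0.03) and the S100 members 0.89 and 1.01 higher (mean 0.95 ± 0.09). Envelope genes were thus below the input but somewhat above the median coding gene. By mean ratio each measured envelope member lay above 52.2% to 76.7% of coding genes, whereas S100 members lay above 25.0% to 92.0%. The interquartile range of the member means was 0.09 among envelope genes and 1.44 among S100 genes, against 1.87 among all coding genes. The median SD between replicates was 0.09 for envelope genes, 0.41 for S100 genes and 0.16 for all coding genes, so the S100 values were the less repeatable.

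**Figure D2:**
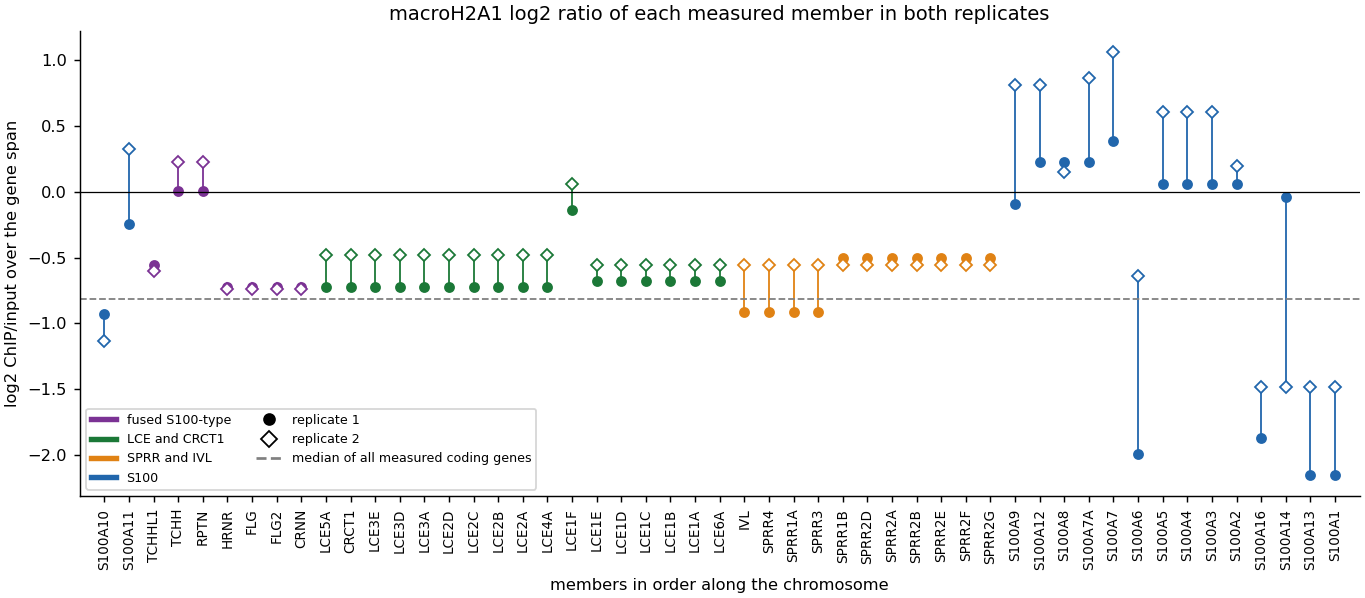
Log2 ratio of every measured member in each replicate, in the order of the genes along the chromosome, with the 2 replicates as separate points. The envelope members form level runs of equal values between -1 and 0, and the S100 members at both ends scatter above and below them.

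Among the fused S100-type genes, filaggrin (FLG, chr1:152274641-152297715) had a log2 ratio of -0.73 in replicate 1 and -0.74 in replicate 2. FLG2, CRNN and HRNR, which encode filaggrin-2, cornulin and hornerin, had the same values because one segment in each replicate held all of them. Hornerin's span was assayed to 72.3% and that of filaggrin to 100%. Both genes hold long tandem repeats, sequence in which short reads are hard to place. Whether the repeats relate to the assayed share was not tested. How reads with several possible positions were treated is not given in the sources used here.

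TCHHL1, which encodes a trichohyalin-like protein, had -0.56 and -0.60. TCHH and RPTN, which encode trichohyalin of the hair root sheath and repetin, lay in a segment at 0.01 in replicate 1 and 0.23 in replicate 2. Both spans were enriched over 0% of their bases in replicate 1 and 100% in replicate 2, so neither was called. These were the 2 envelope members above 0 in both replicates. The 7 fused genes had a median of -0.73 and -0.74.

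The late cornified envelope genes encode small cysteine-rich proteins added late to the envelope. LCE5A, CRCT1, LCE3E, LCE3D, LCE3A, LCE2D, LCE2C, LCE2B, LCE2A and LCE4A all had -0.73 in replicate 1 and -0.48 in replicate 2. LCE1E, LCE1D, LCE1C, LCE1B, LCE1A and LCE6A had -0.68 and -0.55. Between these blocks lay LCE1F, at -0.13 and 0.06, the only measured envelope member with opposite signs in the replicates. The 17 measured genes of this class had a median of -0.73 and -0.48, and no base of them was enriched in both replicates. Many LCE genes, like the SPRR2 genes, are near-identical copies among which short reads may be split, so their separate values are uncertain even apart from the shared segments.

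Involucrin (IVL, chr1:152881022-152884362), an early scaffold of the envelope, had -0.92 in replicate 1 and -0.56 in replicate 2. SPRR4, SPRR1A and SPRR3 had the same values. SPRR1B and the 6 SPRR2 members had -0.50 and -0.56. The small proline-rich proteins are crosslinked bridges within the envelope. All 11 genes of the class lay below 0 in both replicates, beside 69.7% of coding genes, with a class median of -0.50 and -0.56. They lay in 2 segments in replicate 1 and in 1 segment in replicate 2, so they are not 11 separate observations.

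**Figure D3:**
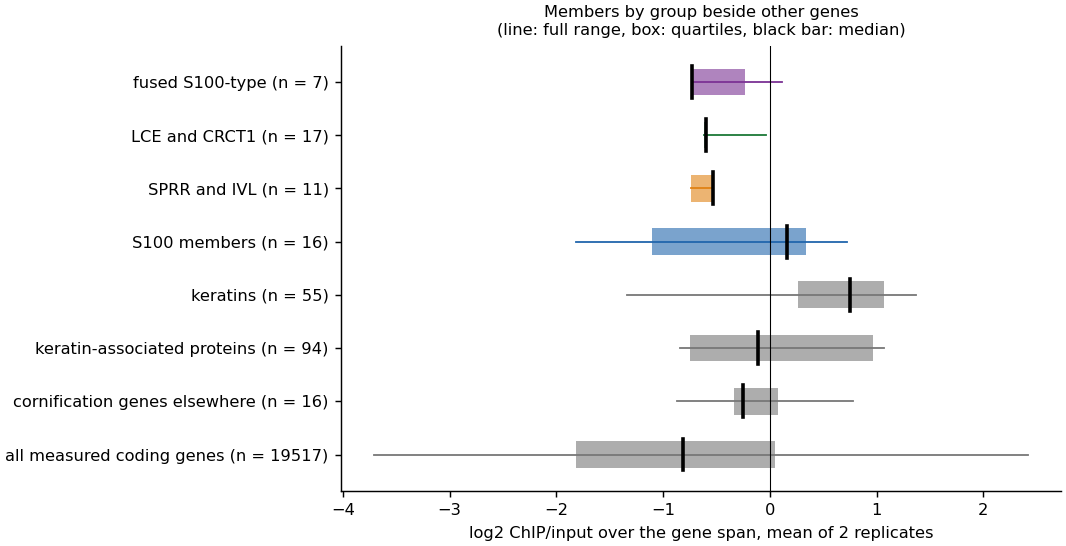
Mean log2 ratio over the 2 replicates for the members by class, above other epidermal families and all measured coding genes; lines are the full range, boxes the quartiles and black bars the median. The LCE and SPRR classes have narrow boxes and the fused S100-type class a wider one, with medians near that of all coding genes. The S100 genes are broad, and most keratins lie above 0.

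The level runs came from a few long segments. In replicate 1 the segment that held the 14 measured envelope members from HRNR to LCE4A was 529 kb long, longer than 98.9% of all segments of that replicate. In replicate 2 the same members were split between a segment of 264 kb, with HRNR, FLG, FLG2 and CRNN, and one of 285 kb, with 10 measured members from LCE5A to LCE4A. Replicate 2's longest segment, 331 kb, held the 11 members from IVL to SPRR2G and was longer than 94.3% of its segments. The median over all segments was 27.4 kb in replicate 1 and 53.7 kb in replicate 2. Within a segment only a mean is given, so a short peak or dip at a single gene cannot be seen.

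From TCHHL1 to SPRR2G, over 1067 kb, enriched segments of both replicates covered 0.583% of the assayed bases, with a mean ratio of -0.58 and -0.46. Member spans took 210 kb of the whole complex. Over them the mean ratio was -0.63 and -0.41 with 6.38% covered in both replicates, with bases of overlapping spans counted once for each gene. Over the 1439 kb between neighbouring members the mean ratio was -0.39 and -0.23 with 9.50% covered. On these means the members were lower than the sequence between them in both replicates, and both were below 0. Many envelope genes and the gaps beside them shared segments and so had equal values. The difference of means therefore does not hold gene by gene. Of 49 assayed gaps between neighbours, 39 lay below 0 in both replicates. Many of the 39 lay in the same segments as the members beside them, so they are not independent. No share of gaps elsewhere is given beside this count.

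Other coding genes within the complex gave no call, beside 19.2% of all measured coding genes. Of 10 such genes 7 lay below 0 in both replicates, a share near the 69.7% of all coding genes. The 7 included C1orf68 at -0.73 and -0.48 and LELP1 and PRR9 at -0.50 and -0.56. These 3 genes lay in segments that also held members, and so shared their values. SMCP, which encodes a protein of the sperm mitochondrial capsule, had -0.28 and 0.51, opposite signs in the replicates. The nearest coding gene before the complex, THEM4, had -1.12 and -1.35, and the nearest after it, CHTOP, had -2.15 and -1.49 and shared its values with S100A13 and S100A1.

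At the first end of the complex, S100A10 (chr1:151955391-151966335), which encodes the light chain partner of annexin A2, had -0.93 and -1.13. A segment border lay 1295 bases upstream of its start in replicate 1 and 1247 bases upstream in replicate 2, 48 bases apart. Upstream of that border the segment stood at 2.19 and 1.27, so the ratio dropped steeply just before the gene in both replicates. The stretch from there, chr1:151967630-151996053, was enriched in both replicates over 28.4 kb at a mean of 0.97 and 1.27 and held no coding gene.

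S100A11 (chr1:152004982-152020383), which encodes calgizzarin, had -0.24 and 0.32 over its annotated span. That span includes a long transcript model that reaches into an enriched stretch, and 21.9% of it was enriched in both replicates. Over the canonical transcript, which ends at its start site at 152009480, the ratio was -2.30 in replicate 1 and 0.09 in replicate 2. Replicate 1 placed a border 306 bases upstream of the canonical start and replicate 2 placed none within 7533 bases. The replicates therefore differed at this gene by more than at any envelope gene.

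The myeloid S100 genes followed after a gap of 207 kb beyond SPRR2G, where the mean ratio was -0.41 and -0.21. S100A9 and S100A8 encode the subunits of calprotectin. S100A9 had -0.09 and 0.81 and S100A8 had 0.23 and 0.15, so each was enriched in 1 replicate only: S100A8 over 100% of its span in replicate 1, S100A9 over 100% in replicate 2. S100A12 had 0.23 and 0.81 and was enriched throughout in both. S100A7A had 0.23 and 0.86, with 78.2% of its span enriched in both replicates.

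S100A7 (chr1:153430220-153433127) had 0.39 in replicate 1 and 1.06 in replicate 2 (mean 0.73 ± 0.47, SD, n = 2), and was enriched throughout in both. Its mean was the highest of the members and lay above 92.0% of coding genes. S100A7 and 78.2% of the S100A7A span lay in a stretch enriched in both replicates, chr1:153390457-153462748, of 72.3 kb at a mean of 0.66 and 1.06. S100A7A started 1461 bases before the stretch, where replicate 2 had 0.15 and was not enriched. The stretch was the longest of 6 of its kind in the complex, which together took 143 kb, and 3 of the 6 touched a member. In replicate 1 the zone held short segments of 10.8 kb at 1.91 and 2.79 kb at 2.43, and in replicate 2 it was a single segment of 93.1 kb at 1.06. The replicates thus both placed enrichment here but divided it differently.

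**Figure D4:**
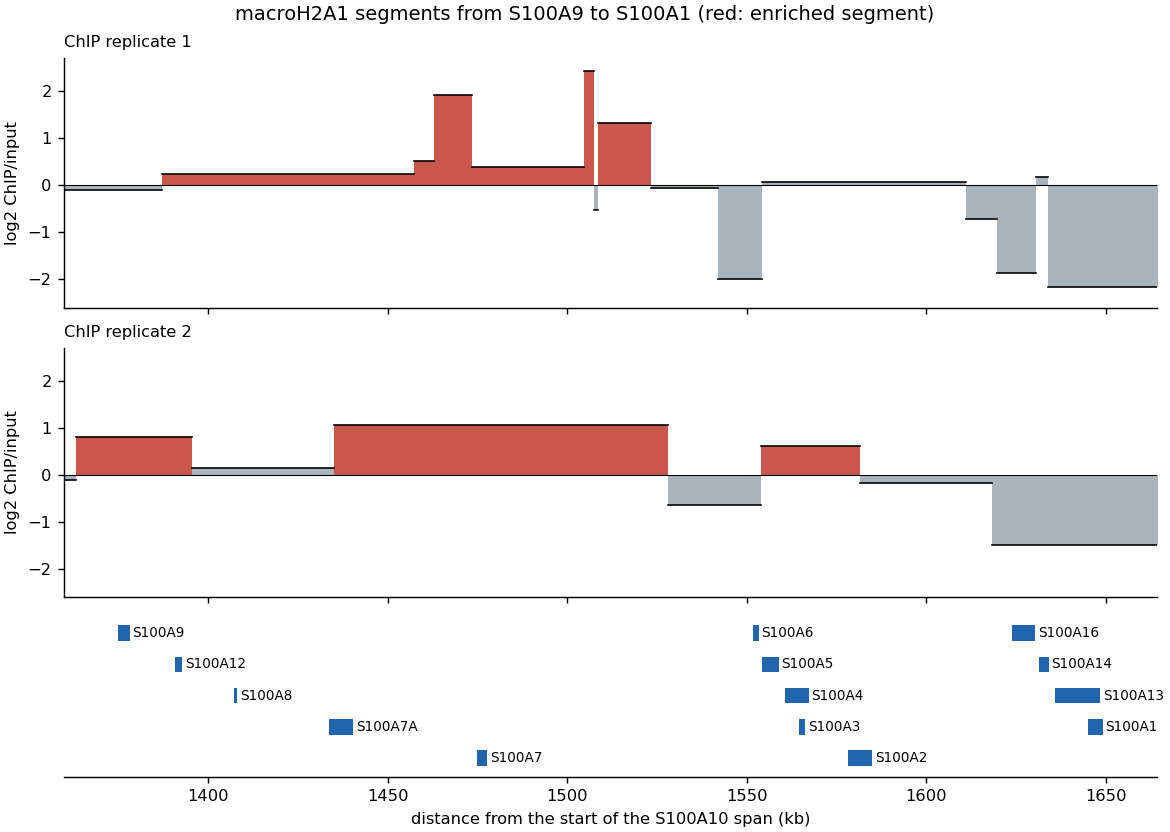
Segments of each replicate across the S100 genes at the far end of the complex, as log2 ratio against the distance in kb from the first base of the complex, with enriched segments in red and gene spans below. The ratio is above 0 over S100A12, S100A7A and S100A7 in both replicates, is below 0 at S100A6 in both, and is low again over S100A16, S100A13 and S100A1.

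S100A6 (chr1:153507075-153508720), which encodes calcyclin, had -2.00 in replicate 1 and -0.64 in replicate 2. A border lay 1101 and 792 bases upstream of its start, 309 bases apart, and the segment upstream of it stood at 0.06 and 0.60. As at S100A10, both replicates placed a drop just before the gene, though its depth differed. The upstream segment held S100A5, S100A4 and S100A3, which therefore shared 0.06 and 0.60 and were enriched throughout in replicate 2 only. S100A4, also known as fibroblast-specific protein, was thus not low in either replicate although it is a mesenchymal gene by background knowledge. S100A2 had 0.06 and 0.20.

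At the last end, S100A16 had -1.87 and -1.49, and S100A13 and S100A1 had -2.15 and -1.49. S100A13 and S100A1 lay above 25.0% of coding genes, the lowest of the members. S100A14, between them, had -0.04 and -1.49: in replicate 1 a separate segment at 0.18 held the start of S100A14 and ended 272 bases upstream of the start of S100A16. In replicate 2 one segment held all 4 genes. These 4 genes encode S100 proteins of the heart and muscle (S100A1), of epithelia (S100A14) and of many tissues (S100A13, S100A16).

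By role, the 6 S100 genes known from mesenchymal cells had a median of -1.40 and -0.89, the 3 myeloid genes of 0.23 and 0.81, the 2 psoriasin genes of 0.31 and 0.96 and the 5 others of 0.06 and 0.20. The broadly made genes included 4 of the low values, S100A6, S100A10, S100A13 and S100A16, but also S100A4 above 0. No member of the complex other than S100 genes lay below -1 in either replicate.

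Borders near start sites were few. Replicate 1 had 30 borders in the complex (18.2 per Mb of its full length, against 17.5 per assayed Mb of the autosomes). Replicate 2 had 19 (11.5 against 9.65, counted likewise). A border lay within 1 kb of the start in both replicates at 1 of 51 measured members, LCE1E, beside 8.65% of coding genes. There the segment over the gene stood at -0.68 and -0.55 and the one upstream at -0.13 and 0.06. In single replicates the counts were 4 of 51 beside 21.2% of coding genes, and 2 of 51 beside 12.8%. The median distance from start to nearest border was 34.2 kb and 59.8 kb for envelope members, 7.09 kb and 10.3 kb for S100 members, and 5.14 kb and 11.7 kb for all coding genes. Starts of envelope genes thus lay far from borders, and starts of S100 genes at about the distance of coding genes in general.

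Promoter composition differed within the complex in a property that the choice of members did not use. RefSeq promoters were found for 49 members. At least 10 CG dinucleotides in 300 bases occurred in 4 of them (8.16%), against 56.4% of 35116 promoters in the same table. These were S100A10 with 32, S100A6 with 31, S100A11 with 22 and S100A13 with 11. The mean ratio at their start was -1.03, -1.32, -1.11 and -1.82, although that of S100A11 rests on replicate 1. Only S100A13 lay below -1 in both replicates, at -2.15 and -1.49. S100A10 had -0.93 in replicate 1, and in replicate 2 S100A6 had -0.64 and S100A11 0.09. Few CG did not always go with a high ratio: S100A16 held 3 and had -1.68, and S100A1 held 6 and had -1.82. Envelope promoters held a median of 2 CG, and at most 6.

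A TATAAA 20 to 40 bases before the start was present in 24 of 49 member promoters (49.0%), against 2.30% of all promoters. It occurred in 5 of 7 fused genes, 5 of 17 LCE genes, 8 of 9 genes of the SPRR and IVL class and 6 of 16 S100 genes. Searched on both strands anywhere in the window, it was in 57.1% of member promoters against 11.5%. TGANTCA reads the same on both strands; it was in 17 of 49 (34.7%) against 7.71%, namely in 6 fused genes, 0 LCE genes, 7 of the SPRR and IVL class and 4 S100 genes. A TATAAA on the strand of the gene and a TGANTCA cannot overlap each other. Genes with and without either motif lay in the same segments, so these letters could not be set against the ratio. A match in a window is a description of its letters, and neighbouring family members are copies that share them. Base composition of the spans varied less, with a median GC content of 48.8% for envelope genes and 53.2% for S100 genes.

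**Figure D5:**
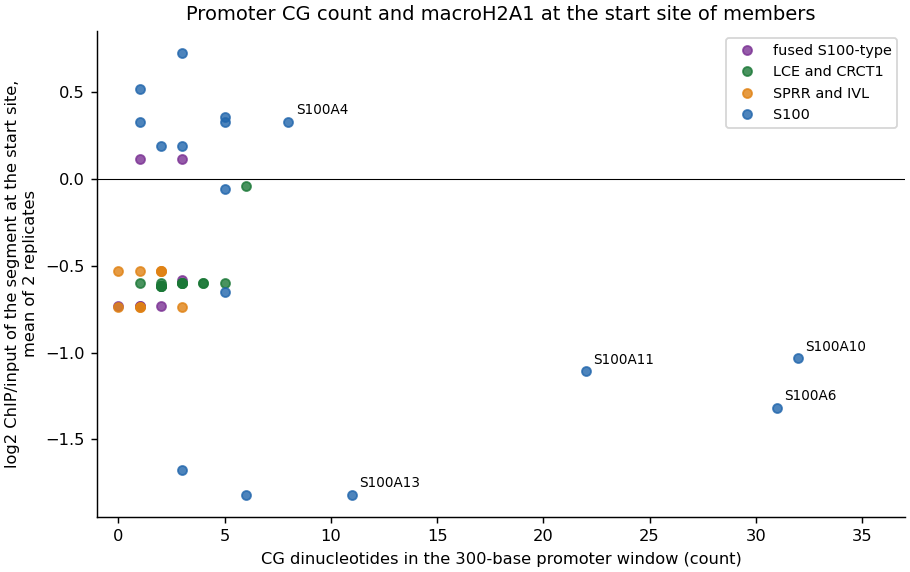
CG dinucleotides in the 300-base promoter of each member against the mean log2 ratio at its start site, envelope and S100 genes marked apart. Promoters with 10 or more CG all belong to S100 genes with a mean ratio below -1, though of these only S100A13 is below -1 in both replicates. Promoters with few CG occur over the whole range.

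Set beside other epidermal families, the envelope genes differed most from the keratins. Of 55 measured keratin genes, 43 were called (78.2%), beside 0 of 35 envelope members and 19.2% of all measured coding genes, and envelope minus keratin medians were -1.26 and -1.40 (mean -1.33 ± 0.10, SD, n = 2). The keratin-associated proteins of hair, which also form clusters of small genes, were called in 41 of 94 (43.6%). Of 16 cornification genes that lie elsewhere 4 were called (25.0%) and 11 lay below 0 in both replicates (68.8%), shares near the 19.2% and 69.7% of all coding genes. Of the 4 S100 genes outside the complex 3 were called: S100Z at 0.95 and 0.82, S100B at 0.40 and 1.00 and S100G at 0.21 and 0.27, with S100P at -1.14 and -1.10 as the other one. Family members in a cluster share segments here too, so none of these counts is one of independent genes.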

How the data were processed

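Chromatin of IMR90 cells was crosslinked, sheared and precipitated with a macroH2A1 antibody, and sequenced on an Illumina instrument, per the labels' protocols. CASAVA 1.7 and the build hg19 are named in the submitters' processing notes. Not given in the sources used here are the aligner, the segmentation program, the treatment of duplicate and repeated reads and the scaling to input. The authors deposited a segmentation per ChIP replicate, not pooled, in which each segment has a log2 value for ChIP against input and a −log10 p-value. Base 2 was inferred, because back-transforming with it gave mean ratios of 1.01 and 0.995. Of segments below 0, 68.5% and 68.6% list −log10 p as 0, so it served only to select enriched segments.

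From these files the base-weighted log2 ratio and the covered share were computed over gene spans (GENCODE release 44 on GRCh37, the same build) and the sequence between them, with Python 3.11.15, numpy 2.4.6 and pandas 2.3.3, and drawn with matplotlib 3.10.9. On 1000 simulated windows 0 values differed from the known answer. No p-value was computed, since there is 1 group of 2 ChIP replicates. The files used here give no read counts, so depth is unknown and precision rests on the replicate spread. All members are described; of each comparison list the 2 highest and the 2 lowest by mean ratio may be named, and not all of those are. The members and lists were chosen with earlier results of these data known. Alternatives were other thresholds, call rules, windows, whole segments, centring on all coding genes and each replicate alone.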

Additional observations from a re-analysis of the deposited data

How the results depend on the processing

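No paired analysis was possible because each input entered only through the deposited ratio of its ChIP replicate. The replicates are described as biological, and 2 of them leave every value with a wide error. Of the members, 3 were called as enriched, beside 19.2% of all measured coding genes. That count was also 3 with −log10 p of at least 5, 2 where all assayed bases had to be covered, and 4 where any covered base sufficed. It was 0 with a log2 ratio above 0.5, and 10 with no p minimum, which also put the covered share of the complex at 20.3%. The replicates alone gave counts of 5 to 9 and shares of 12.2% to 19.6%. No share of all coding genes is given for the changed thresholds, call rules, windows or transcripts. Counts under those settings therefore show only how the calls depended on the rule. Each replicate alone gave an envelope median of -0.73 to -0.55, an S100 median of 0.01 to 0.26 and a difference, envelope minus S100, of -0.81 to -0.74. From member means over both replicates that difference was -0.76, and -0.84 in a 5-kb window centred on the 5′ end of the annotated span. In that window S100A2 stood at -0.055, and 3 members were called, but with S100A11 (100% covered) and without S100A7A (20.8%). For S100A11 the window lay at 152020383, the far end of its long transcript model, and not at its canonical start, 152009480. At that canonical start the ratio was -2.30 in replicate 1 and 0.09 in replicate 2. The window of S100A2 likewise lay upstream of its canonical start. Whole segments with their gaps changed no value by more than the replicate spread. Over canonical transcripts, chosen after seeing the data, the S100 median was 0.20 and the count 3.

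Centring each replicate on its median coding gene (-0.88 and -0.75) put the envelope median at 0.21 and the S100 median at 0.97, and left the difference at -0.76. It turned the sign of 33 members: TCHHL1 (0.23), HRNR, FLG, FLG2 and CRNN (0.083), LCE5A, CRCT1, LCE3E, LCE3D, LCE3A, LCE2D, LCE2C, LCE2B, LCE2A and LCE4A (0.21), LCE1E, LCE1D, LCE1C, LCE1B, LCE1A and LCE6A (0.20), IVL, SPRR4, SPRR1A and SPRR3 (0.077), SPRR1B, SPRR2D, SPRR2A, SPRR2B, SPRR2E, SPRR2F and SPRR2G (0.28), and S100A14 (0.053). Signs of these genes are therefore relative to the scale chosen.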

Other observations

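Genes of related function outside the complex gave the following values, to be read beside the 19.2% of all measured coding genes that were called and the 69.7% below 0 in both replicates. Of 5 partners and receptors of S100 proteins none was called and all lay below 0 in both replicates: ANXA2, the partner of S100A10, had -2.07 and -1.90, AGER, a receptor of S100 proteins, -2.41 and -1.56, AHNAK -1.03 and -0.89, and TLR4, a receptor of calprotectin, -0.73 and -0.66. Of 8 epidermal regulators 3 were called, with GRHL3 at 1.13 and 1.47 and OVOL1 at 0.69 and 0.98 as the highest, and ZNF750 at -1.75 and -1.84 as the lowest. Of the cornification genes elsewhere, the transglutaminase gene TGM1 had -1.25 and -0.49, and the lipoxygenase genes ALOX12B and ALOXE3 had 0.64 and 0.91, and 0.46 and 0.91. Among 6 keratinocyte markers 2 were called and among 5 myeloid markers 3 were called.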
